A study of Mus musculus with 24 samples.

Results

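The glucocorticoid receptor gene Nr3c1 and 7 genes known to respond to the receptor, Fkbp5, Tsc22d3, Per1, Sgk1, Dusp1, Zbtb16 and Ddit4, were described through the open-chromatin regions assigned to them. A region was taken as theirs if it overlapped the gene body, or if the nearest end of any protein-coding gene lay within 50 kb and belonged to one of these genes. The regions were not selected on their own counts, since the rule uses positions and names only. The genes, however, were chosen by a proposal made with earlier recipient comparisons of these data in view. The rule found 11 of the 13910 regions in the table, and all 11 passed the filter on low counts.

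Chromatin was profiled by ATAC-seq, in which Tn5 transposase cuts and tags open DNA, in donor blood-forming cells recovered from mouse bone marrow. Marrow from WT mice carrying the CD45.1 allele was placed into young CD45.2 recipients that were either WT or of a line named IκB–, and cells were sorted 13 to 15 weeks later. Donor cells were sorted as long-term stem cells (HSC) and as 3 classes of multipotent progenitors named MPP2, MPP3 and MPP4, at 500 to 1500 cells a sample. Each of the 8 groups had 3 libraries. Every profiled cell therefore came from a WT donor, and the groups differ in the genotype of the recipient and in the sorted subset. The labels do not describe the genetic change of the IκB– line, whose name refers to IκB, a family of proteins that inhibit NF-κB. The protocol gives the HSC gate as negative for both CD150 and CD48, and the group is used here under its label. Nothing in the labels says which libraries came from separate recipients, so p-values measure the spread between these samples, which may be partly technical.

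The glucocorticoid receptor is a nuclear receptor that is held in the cytoplasm by chaperones until it binds its hormone. It then enters the nucleus and binds DNA at glucocorticoid response elements, which are palindromes of a short half-site, or acts through other bound factors such as NF-κB. In blood-forming tissue glucocorticoids are known for acting on stem cell trafficking, on erythroid expansion and on the survival of lymphoid cells.

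Counts per library summed to between 121599 and 963699 over all regions. In WT MPP3 the counts of replicates 2 and 3 agreed within sampling noise, with a chi-square per degree of freedom of 1.005 over 13126 regions (p 0.348), and both were counted as 1 sample, which leaves 23 replicates and n = 2 in that group. In other pairs of replicates of a group the same ratio was 1.31 to 4.12. Replicate 3 of IκB– HSC stood apart, with 73.8% of its nuclear counts in regions near a gene end, at most 1 kb away, against 61.1% to 71.7% in the other replicates. Regions were present for 8 of the 10 stem and progenitor marker genes, for both megakaryocyte markers, for 2 of 3 erythroid markers and for 1 of 4 neutrophil and monocyte markers, while all 3 T cell markers (Cd3e, Cd4 and Cd8a) had none in the table. The summed level of the 4 megakaryocyte regions ran from 109.8 to 255 CPM in replicates of WT recipients and from 80.1 to 179 CPM in those of IκB– recipients, and the part of other lineages in the results was not tested. Values are CPM, counts scaled to 1000000 per library, on library sizes adjusted by TMM, a normalization that assumes most regions do not differ. In bulk samples, fewer cells with an open region and less opening per cell cannot be told apart.

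Of the 11 regions, 4 lay at or near a gene end (at most 1 kb away), 6 lay deeper inside a gene body and 1 lay outside genes. A gene end means either end of a gene, upstream or downstream. The narrowest was 142 bp wide and the widest 986 bp, with a median of 421 bp against 346 bp over all regions. RefSeq promoter windows, 250 bases before to 50 bases after a start site on GRCm38.p6, were found for 6 of the 8 genes, which have 14 windows in all. Nr3c1 and Zbtb16 had no window and no listed start site, so how far their regions lie from a start site is not known here. A member region overlapped 5 of the 14 windows. Sgk1, with 6 listed start sites, is shown by 2 windows because they set a sequence match beside the measured region. The first, at chr10:21993640-21993939 on the plus strand, holds the response element and its half-sites in capitals and lies outside the measured region. The second, at chr10:21994416-21994715 on the plus strand, lies wholly inside it.
Sgk1 window with the response element: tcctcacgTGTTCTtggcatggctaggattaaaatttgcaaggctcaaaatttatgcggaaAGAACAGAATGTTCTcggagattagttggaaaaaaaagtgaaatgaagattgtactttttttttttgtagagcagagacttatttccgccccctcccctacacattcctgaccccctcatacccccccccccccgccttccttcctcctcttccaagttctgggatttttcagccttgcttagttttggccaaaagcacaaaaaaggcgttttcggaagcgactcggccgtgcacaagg
Sgk1 window inside the open region: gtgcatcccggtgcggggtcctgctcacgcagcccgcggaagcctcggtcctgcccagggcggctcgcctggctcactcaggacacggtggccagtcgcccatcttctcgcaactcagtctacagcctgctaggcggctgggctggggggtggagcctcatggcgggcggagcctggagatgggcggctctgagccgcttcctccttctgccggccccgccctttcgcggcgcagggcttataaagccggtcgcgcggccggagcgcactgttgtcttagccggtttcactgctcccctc

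Dusp1 is shown because its only window, at chr17:26508423-26508722 on the minus strand, lies wholly inside its open region and holds a cyclic AMP response element, in capitals. Per1 is shown because 197 bases of this window, at chr11:69098699-69098998 on the plus strand, make up the whole of the region with the highest recipient ratio of the 11. No searched motif was found in the Per1 window, so it has no capitals.
Dusp1 window: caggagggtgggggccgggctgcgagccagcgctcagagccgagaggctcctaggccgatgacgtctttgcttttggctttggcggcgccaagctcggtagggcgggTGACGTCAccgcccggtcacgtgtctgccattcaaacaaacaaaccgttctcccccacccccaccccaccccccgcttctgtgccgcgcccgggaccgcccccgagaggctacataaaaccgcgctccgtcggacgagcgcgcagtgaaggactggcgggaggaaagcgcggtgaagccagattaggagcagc
Per1 window: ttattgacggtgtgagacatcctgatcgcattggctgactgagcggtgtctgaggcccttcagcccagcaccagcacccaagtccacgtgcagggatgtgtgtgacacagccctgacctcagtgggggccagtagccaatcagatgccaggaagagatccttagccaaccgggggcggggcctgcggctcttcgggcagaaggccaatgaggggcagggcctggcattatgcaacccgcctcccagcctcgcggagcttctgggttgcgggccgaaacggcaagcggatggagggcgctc

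The windows were searched on both strands for 4 motifs. These were the glucocorticoid half-site AGAACA, the full palindrome (AGAACA, then 3 bases of any kind, then TGTTCT), the cyclic AMP response element TGACGTCA and the kappaB site (GGGA, any base, then TTTCC). The full palindrome occurred in 3 of 32851 windows (0.00913%), and 1 of them was the Sgk1 window printed first. There it read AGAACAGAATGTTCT at positions 21993701 to 21993715, 189 bases before the start at 21993890 and 648 bp from the Sgk1 region. The half-site occurred in 19.0% of all windows and in 4 of the 14 windows of these genes, 3 of Sgk1 and 1 of Tsc22d3. Each full palindrome also counts as a half-site on either strand. The cyclic AMP response element occurred in 1.79% of all windows and, among these genes, only in that of Dusp1, 143 bases before the start. The kappaB letters occurred in 0.411% of all windows and in 0 of these 14. A match of letters is a description and not evidence of binding.

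Per unit length, the most open of the 11 regions was the one at the upstream end of Per1, called the end of Per1 from here on. It had 333 CPM per kb averaged over the 23 replicates, above 97.6% of all tested regions. Ddit4 followed with 274 CPM per kb, the region inside Per1 with 251 and the region outside Tsc22d3 with 240. Zbtb16 had 193 CPM per kb, the narrow Nr3c1 region 191 and Dusp1 177. The wide Nr3c1 region had 157 CPM per kb, Fkbp5 156 and the region inside Tsc22d3 154. Sgk1 was the least open, with 116 CPM per kb. When the 8 group means of a region were put in order, all 7 gaps between neighbours were smaller than the larger SD of the pair, in each of the 11 regions. The ratio of the highest to the lowest group mean ran from 1.35 for the wide Nr3c1 region to 2.95 for Zbtb16.

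The main comparison asked whether the genotype of the recipient was accompanied by a change in accessibility at these genes in WT donor cells. No region of the 11 passed the test in the mean recipient effect over the 4 subsets, and the 3 with the smallest p were those inside Per1 and at Sgk1, with higher values in IκB– recipients, and at Zbtb16, with lower values. The log2 fold changes of the receptor gene itself were 0.14 in its wide region and 0.095 in its narrow one. edgeR's quasi-likelihood test with Benjamini-Hochberg adjustment called 0 of 11 regions at an adjusted p under 0.05, against 231 of all 13325 tested regions (1.73%). At an unadjusted p under 0.05 there were 3 of 11 regions, against 14.3% of all regions. DESeq2 and limma-voom each had 2 of 11 at that level, against 11.7% and 16.5% of all regions, and also called 0. The log2 fold change was positive in 9 regions and negative in 2, with a median of 0.095 against -0.0015 over all tested regions, 49.8% of which were positive. Without replicate 3 of IκB– HSC, which is described further on, 6 were positive and 5 negative, with a median of 0.0052. In that fit 1 of 11 had an unadjusted p under 0.05, against 14.7% of all regions.

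Nr3c1 encodes the receptor. Its wide region, chr18:39489767-39490752, lay in the gene body, 28669 bp from the nearer gene end. With no listed start site, whether this region or the narrow one lies at a promoter is not known here. In WT recipients it held 85.6, 125 and 169.8 in HSC, 143, 158 and 137 in MPP2, 146 and 168 in MPP3, and 111, 159.9 and 177 in MPP4 (CPM in each replicate). In IκB– recipients it held 131, 188 and 195 in HSC, 121, 169 and 168 in MPP2, 144, 155 and 192 in MPP3, and 92.5, 228 and 194 in MPP4. The recipient groups overlapped in every subset, and the lowest value of all was replicate 1 of WT HSC. The mean log2 fold change was 0.14 ± 0.14 (SE), with a 95% interval from -0.14 to 0.42 and an edgeR adjusted p of 0.704. The narrow region, chr18:39491447-39491588, held 6.11 to 39.4 CPM in WT and 7.60 to 55.1 CPM in IκB– recipients from only 1 to 29 counts per replicate, and its log2 fold change of 0.095 ± 0.27 had a 95% interval from -0.45 to 0.64.

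Fkbp5 encodes a co-chaperone that lowers the receptor's affinity for hormone and is itself induced by the receptor, which makes it a feedback regulator. Its region, chr17:28485976-28486420, contains the RefSeq start site at 28486149. Replicates of WT recipients held 55.0, 35.2 and 99.0 in HSC, 53.2, 57.6 and 77.0 in MPP2, 43.6 and 88.8 in MPP3, and 62.6, 86.9 and 71.6 in MPP4 (CPM). Replicates of IκB– recipients held 48.2, 53.6 and 164 in HSC, 38.9, 58.7 and 72.1 in MPP2, 68.9, 84.3 and 111 in MPP3, and 40.8, 68.4 and 52.4 in MPP4. The highest value of all was replicate 3 of IκB– HSC, and the recipients overlapped in every subset. Averaged over the subsets, the log2 fold change was 0.067 ± 0.20 (95% interval -0.34 to 0.47, edgeR adjusted p 0.920), and it turned to -0.17 without that replicate.

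Tsc22d3 encodes GILZ, a leucine zipper protein that mediates anti-inflammatory actions of glucocorticoids. Its region chrX:140543002-140543422 lay in the gene body, 334 bp from a RefSeq start site at 140542668. Values in WT recipients were 42.8, 50.8 and 66.0 in HSC, 68.1, 51.5 and 66.0 in MPP2, 49.3 and 41.3 in MPP3, and 41.7, 76.5 and 76.4 in MPP4 (CPM). Values in IκB– recipients were 75.7, 44.7 and 84.3 in HSC, 73.7, 88.1 and 101 in MPP2, 37.3, 49.2 and 62.2 in MPP3, and 65.3, 106 and 67.8 in MPP4. Only in MPP2 did all IκB– replicates lie above all WT replicates. The log2 fold change over the 4 subsets was 0.28 ± 0.17 (95% interval -0.062 to 0.62, edgeR adjusted p 0.473). The other region of this gene, chrX:140520189-140520613, lay outside genes, 18915 bp beyond the gene end opposite its start sites. It held 38.2 to 151 CPM in WT and 60.8 to 134 CPM in IκB– recipients, overlapping in every subset, and its log2 fold change of -0.082 ± 0.16 opposed in sign that of the region inside the gene.

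Per1 encodes a repressor of the circadian clock that glucocorticoids induce. The region inside the gene, chr11:69098717-69098913, ends 36 bp before the RefSeq start site at 69098949. Among WT recipients it held 18.3, 39.1 and 37.7 in HSC, 31.9, 30.3 and 38.5 in MPP2, 26.6 and 50.5 in MPP3, and 48.7, 41.7 and 57.3 in MPP4 (CPM). Among IκB– recipients it held 62.0, 44.7 and 129 in HSC, 32.0, 22.0 and 45.4 in MPP2, 52.6, 67.9 and 92.0 in MPP3, and 27.2, 76.0 and 64.7 in MPP4. All IκB– replicates lay above all WT replicates in HSC and in MPP3, and the recipients overlapped in MPP2 and MPP4. The mean log2 fold change was 0.58 ± 0.21 (95% interval 0.15 to 1.01), with an unadjusted p of 0.00903 and an edgeR adjusted p of 0.162. These values rest on 3 to 55 counts per replicate.

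The other region of Per1, chr11:69094781-69095237, lay at the upstream end of the gene at 69095108, before both listed start sites. With WT recipients it held 165, 133 and 198 in HSC, 126, 152 and 159 in MPP2, 102 and 138 in MPP3, and 132, 111 and 210.0 in MPP4 (CPM). With IκB– recipients it held 138, 143 and 306 in HSC, 106, 147 and 131 in MPP2, 122, 187 and 211 in MPP3, and 78.9, 144 and 157 in MPP4. The recipients overlapped in every subset, and replicate 3 of IκB– HSC was again the highest. Averaged over the subsets, the log2 fold change was 0.077 ± 0.15 (95% interval -0.23 to 0.38, edgeR adjusted p 0.875).

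Zbtb16 encodes PLZF, a zinc finger transcription factor that is among the genes induced by glucocorticoids and also acts in blood stem cells. Its region, chr9:48814563-48814847, lay in the gene body, 21378 bp from the nearer gene end and at an unknown distance from a start site. WT recipients gave 24.5, 117 and 42.5 in HSC, 42.6, 69.7 and 71.5 in MPP2, 41.7 and 88.8 in MPP3, and 97.3, 76.5 and 62.1 in MPP4 (CPM). IκB– recipients gave 27.5, 80.4 and 35.5 in HSC, 54.2, 58.7 and 32.0 in MPP2, 54.5, 39.8 and 64.9 in MPP3, and 35.4, 7.60 and 37.0 in MPP4. All IκB– replicates lay below all WT replicates in MPP4 only, where replicate 2 of IκB– held 1 count. The log2 fold change over the 4 subsets was -0.63 ± 0.22 (95% interval -1.08 to -0.18), with an unadjusted p of 0.00726 and an edgeR adjusted p of 0.147. Replicate 2 of WT HSC was the highest of all, and without it the log2 fold change was -0.39 with an adjusted p of 0.499.

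Sgk1 encodes a serum- and glucocorticoid-regulated kinase that acts on ion transport and cell survival. Its region, chr10:21994363-21994740, contains the RefSeq start site at 21994666. The WT recipients had 48.9, 39.1 and 51.9 in HSC, 38.3, 39.4 and 16.5 in MPP2, 36.0 and 35.2 in MPP3, and 20.9, 24.3 and 52.5 in MPP4 (CPM). The IκB– recipients had 27.5, 35.7 and 106 in HSC, 30.6, 51.4 and 48.1 in MPP2, 60.3, 39.8 and 64.9 in MPP3, and 54.4, 45.6 and 40.1 in MPP4. All IκB– replicates lay above all WT replicates in MPP3, whereas in HSC replicates 1 and 2 of IκB– lay below all WT replicates and replicate 3 lay above them. The mean log2 fold change was 0.46 ± 0.22 (95% interval 0.025 to 0.90), with an unadjusted p of 0.0385 and an edgeR adjusted p of 0.308. Without replicate 3 of IκB– HSC it was 0.21 with an adjusted p of 0.720.

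Dusp1 encodes a phosphatase that switches off MAP kinases. Its region, chr17:26508345-26508768, contains the RefSeq start site at 26508472. Replicates from WT recipients had 55.0, 50.8 and 89.6 in HSC, 61.7, 66.7 and 88.0 in MPP2, 56.9 and 73.5 in MPP3, and 69.5, 80.0 and 95.5 in MPP4 (CPM). Replicates from IκB– recipients had 62.0, 35.7 and 248 in HSC, 47.3, 51.4 and 88.1 in MPP2, 59.3, 84.3 and 103 in MPP3, and 21.8, 53.2 and 83.2 in MPP4. Replicate 3 of IκB– HSC was the highest by a wide margin, while replicates 1 and 2 of its group lay within the range of the other replicates. The recipients overlapped in every subset. Averaged over the subsets, the log2 fold change was 0.11 ± 0.22 (95% interval -0.34 to 0.56, edgeR adjusted p 0.878), and it turned to -0.23 without that replicate.

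Ddit4 encodes REDD1, a stress-induced inhibitor of the growth regulator mTORC1. Its region, chr10:59951731-59952136, contains the RefSeq start site at 59951770. WT replicates held 116, 137 and 80.2 in HSC, 89.4, 130.3 and 143 in MPP2, 91.1 and 124 in MPP3, and 48.7, 125 and 109.8 in MPP4 (CPM). IκB– replicates held 82.6, 179 and 138 in HSC, 79.3, 117 and 109 in MPP2, 114, 136 and 111 in MPP3, and 81.6, 98.8 and 114 in MPP4. The recipients overlapped in every subset. The log2 fold change over the 4 subsets of 0.0195 ± 0.15 was the closest to 0 of the 11 regions, with a 95% interval from -0.28 to 0.32 and an edgeR adjusted p of 0.970.

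**Figure D1:**
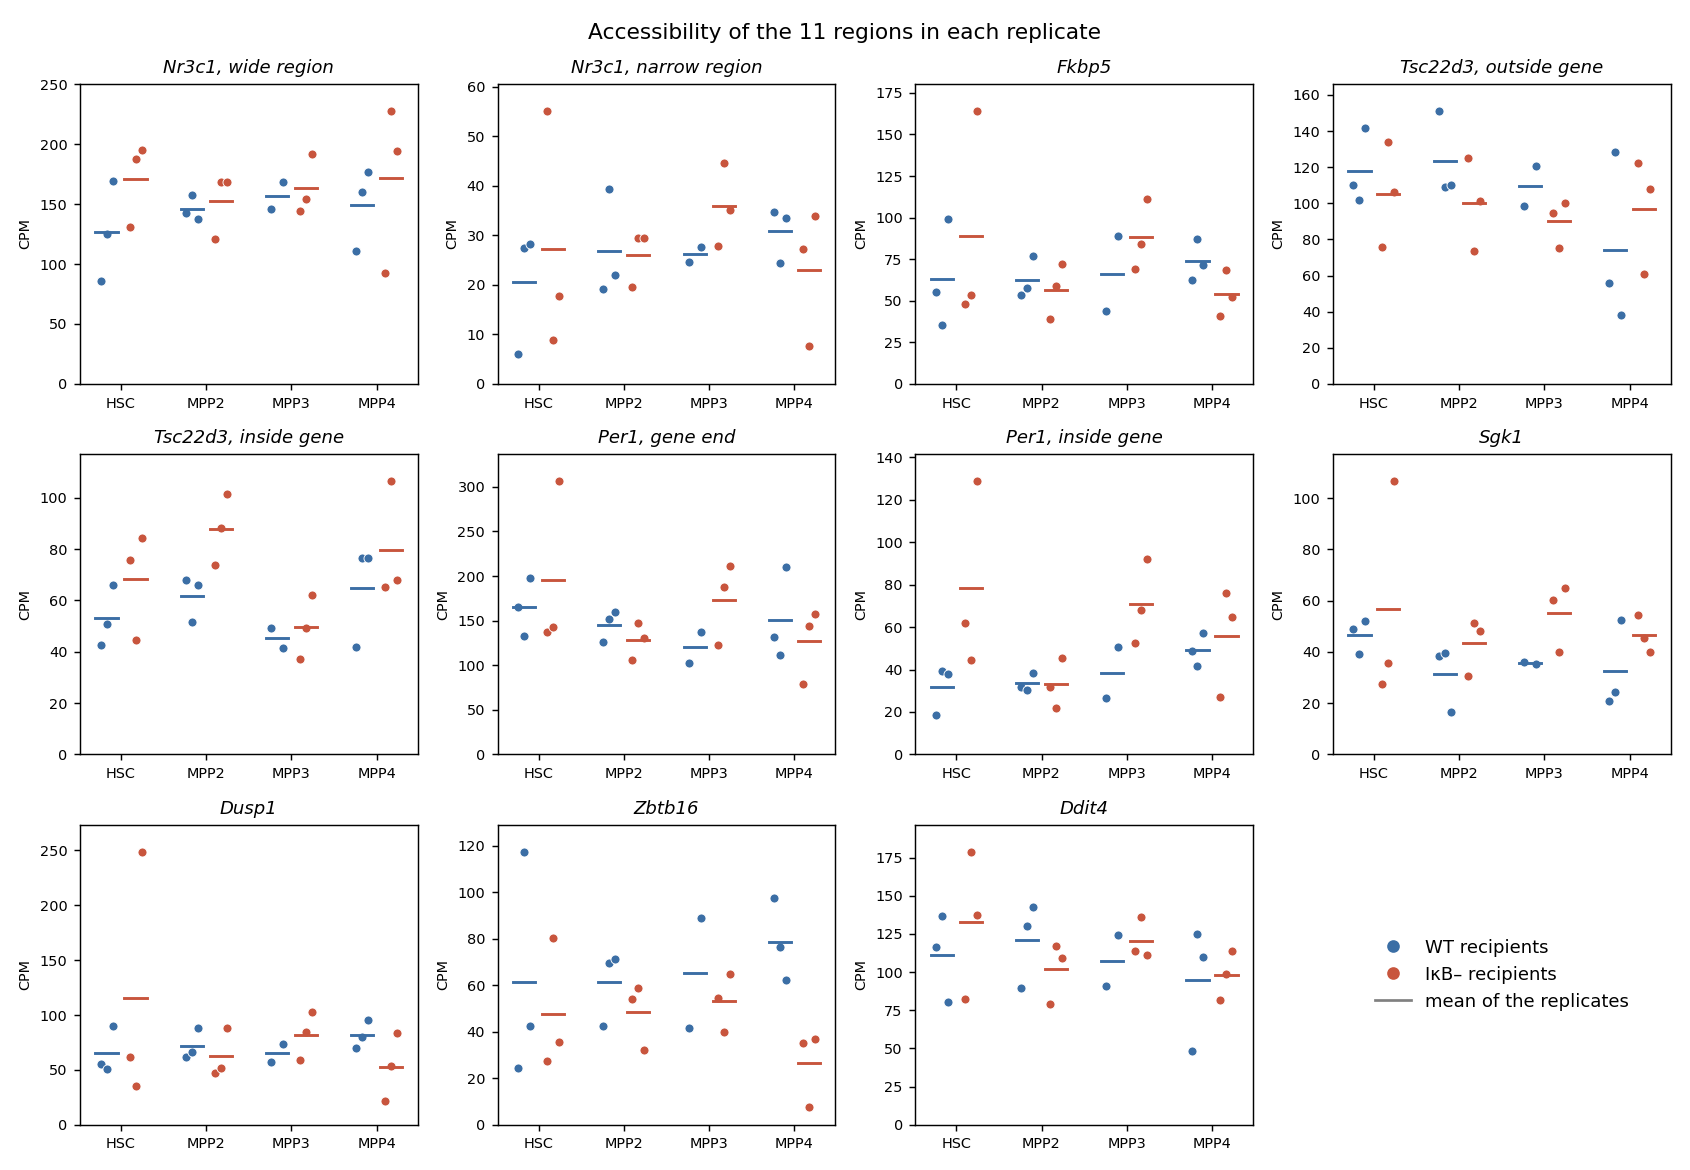
Accessibility (CPM on TMM-scaled library sizes, vertical axes from 0) of the 11 regions in each replicate, by sorted subset, with WT recipients in blue, IκB– recipients in red and a bar at each group mean. In the Per1 panel for the region inside the gene, the IκB– points lie above the WT points in HSC and MPP3, in the Zbtb16 panel they lie below them in MPP4, and 1 IκB– HSC point stands far above the rest for Fkbp5, Per1, Sgk1 and Dusp1.

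Within single subsets none of the 11 regions passed the test, and the 4 values with an unadjusted p under 0.05 were at Per1, Dusp1 and Zbtb16. In HSC the region inside Per1 had a log2 fold change of 1.36 ± 0.46 (SE), with an unadjusted p of 0.00468 and an edgeR adjusted p of 0.684, and Dusp1 had 0.9996 ± 0.4545, with 0.0341 and 0.750. In MPP3 the region inside Per1 had 0.80 ± 0.38, with an unadjusted p of 0.0404 and an adjusted p of 0.486. In MPP4 Zbtb16 had -1.32 ± 0.47, with an unadjusted p of 0.00765 and an adjusted p of 0.531. The 2 HSC values moved without replicate 3 of IκB– HSC, to 0.70 for the region inside Per1 and to -0.38 for Dusp1. For the region inside Per1 in MPP3, the value was 0.44 without replicate 1 of WT MPP3 and 1.36 without replicates 2 and 3, which were counted as 1. For Zbtb16 in MPP4 it ran from -1.52 to -1.10 when 1 MPP4 replicate was left out.

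In HSC edgeR called 0 of the 11 regions and 0 of all 13325 (0%), with 2 of 11 at an unadjusted p under 0.05 against 6.31% of all regions, and DESeq2 and limma-voom each had 0 called and 1 at an unadjusted p under 0.05. In MPP2 edgeR called 0 of 11 against 0% of all regions, and 0 of 11 reached an unadjusted p under 0.05 in any of the 3 tools, against 3.65% of all regions in edgeR. In MPP3 edgeR called 0 of 11 against 0.21%, with 1 at an unadjusted p under 0.05 against 9.52%, and DESeq2 and limma-voom called 0, with 0 and 1 at that level. In MPP4 edgeR called 0 of 11 against 0.045%, with 1 at an unadjusted p under 0.05 against 7.1%, and DESeq2 and limma-voom called 0, each with 1 at that level. The median log2 fold change of the 11 regions was 0.41 in HSC and -0.16 in MPP2, and it was 0.27 in MPP3 and -0.032 in MPP4, against 0.027, 0.0052, 0.0067 and -0.0059 over all tested regions. In 3 of the subsets the median changed sign when 1 replicate was left out. It was -0.21 in HSC without replicate 3 of IκB– HSC, and 0.12 in MPP2 without replicate 1 of IκB– MPP2. In MPP4 it was 0.056 without replicate 3 of WT MPP4 and 0.12 without replicate 1 of IκB– MPP4, while in MPP3 it stayed between 0.11 and 0.52. The sign was the same in all 4 subsets at 5 of the 11 regions, namely the wide Nr3c1 region, the regions inside Tsc22d3 and Per1, Sgk1 and Zbtb16, as it was at 22.4% of all regions. Each of the 5 lost its common sign in some of the 23 fits that left out 1 replicate. The wide Nr3c1 region lost it in 9 fits and the regions inside Tsc22d3 and Per1 in 4 each. Zbtb16 lost it in 2 fits, without replicate 2 of WT HSC and without replicates 2 and 3 of WT MPP3, and Sgk1 in 1, without replicate 3 of IκB– HSC, where its HSC value was -0.57.

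Counts of regions whose recipients did not overlap were small. All IκB– replicates lay above all WT replicates at 1 of 11 regions in HSC (4.11% of all regions in that direction), 1 in MPP2 (6.18%) and 3 in MPP3 (12.5%), where 3 replicates stand against 2. All lay below at 1 region in MPP4 (5.85%). The third MPP3 region, beside those inside Per1 and at Sgk1, was the narrow Nr3c1 region, whose lowest IκB– value of 27.8 CPM lay just above the highest WT value of 27.6 CPM.

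A test of the interaction asked whether the difference between recipients changed from subset to subset. edgeR called 0 of 11 regions and 0 of all regions (0%), with 0 of 11 at an unadjusted p under 0.05 against 4.05% of all regions, and DESeq2 and limma-voom also had 0 at both levels. The smallest p among the 11 belonged to Dusp1, with 0.0867 unadjusted and 0.999 adjusted. This is a joint test over the 4 subsets, and no pair of subsets was tested alone, so the difference between 0.9996 in HSC and -0.67 ± 0.47 in MPP4 at Dusp1 has no test of its own.

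**Figure D2:**
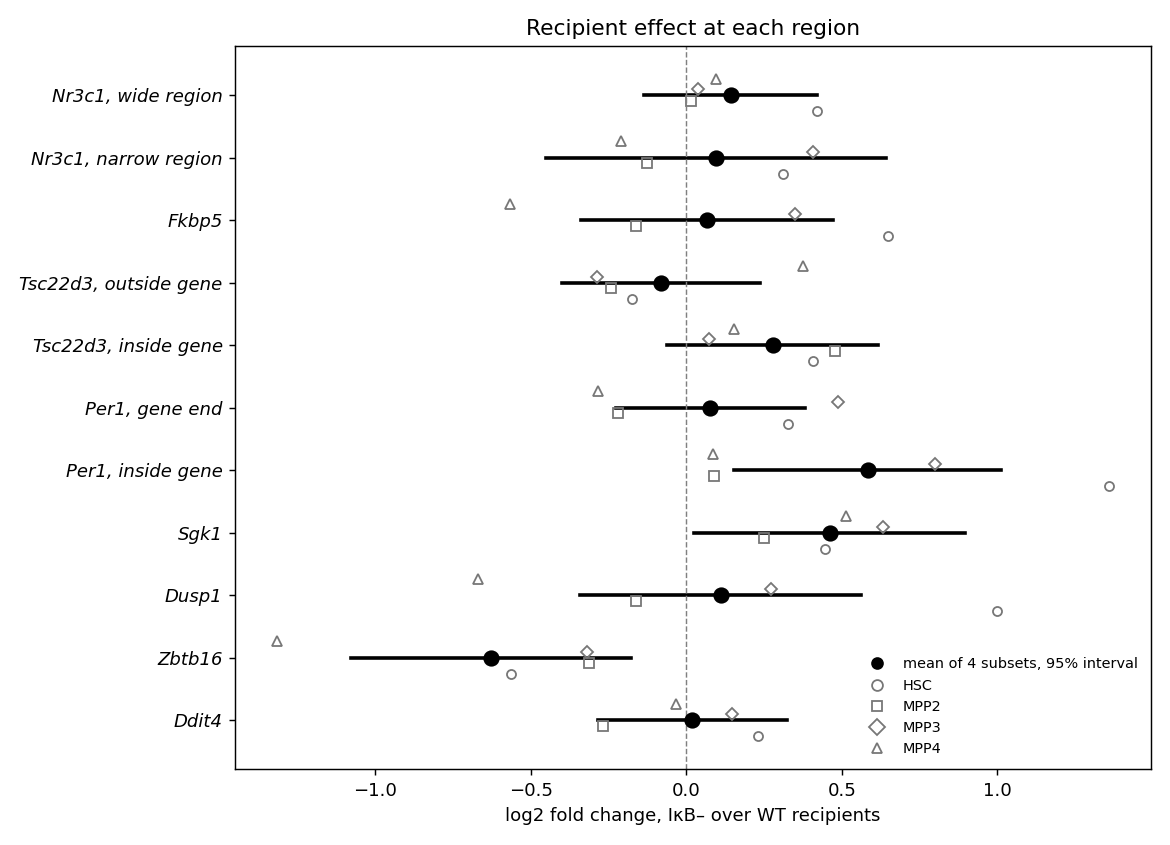
Log2 fold change of accessibility (IκB– over WT recipients, horizontal axis) at each of the 11 regions, with the mean over the 4 subsets as filled circles, its 95% interval as a bar, and the subsets as open symbols. The bars of the region inside Per1, of Sgk1 and of Zbtb16 do not reach 0, and the other 8 cross it.

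Sorted subsets were compared next, with the recipients averaged, to ask whether these genes differ in accessibility between stem cells and progenitors. No region passed the joint test of the 3 progenitor classes against HSC, and the region inside Tsc22d3 had the smallest p. edgeR called 0 of 11 against 7.18% of all regions, with 1 at an unadjusted p under 0.05 against 18.8%, while DESeq2 and limma-voom called 0, with 0 and 1 at that level. The region inside Tsc22d3 held a median of 58.4 CPM in HSC (42.8 to 84.3, n = 6), 70.9 in MPP2 (51.5 to 101.5, n = 6), 49.2 in MPP3 (37.3 to 62.2, n = 5) and 72.1 in MPP4 (41.7 to 106, n = 6). The subsets overlapped, with MPP3 lowest. Its joint p was 0.0250 and its edgeR adjusted p 0.177.

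Each progenitor class was also set against HSC, and 8 of 11 regions had negative log2 fold changes in each of the MPP2, MPP3 and MPP4 comparisons, against 51.1%, 52.1% and 52.75% of all regions. These comparisons share the HSC samples and so are not separate evidence. The medians were -0.18, -0.088 and -0.29 on the log2 scale, against -0.0095, -0.019 and -0.022 over all regions. The shared HSC samples include replicate 3 of IκB– HSC, and without it 6, 4 and 4 regions were negative, with medians of -0.041, 0.15 and 0.056. The MPP3 median also turned positive, to 0.018, without replicate 1 of WT MPP3. edgeR called 0 of 11 in each, against 0.03%, 2.57% and 1.27% of all regions, and DESeq2 and limma-voom called 0 as well. At an unadjusted p under 0.05 edgeR had 1, 0 and 0 regions, against 8.31%, 14.2% and 12% of all regions, DESeq2 had 0 in each and limma-voom had 1, 0 and 0. The region at the end of Per1 was the one past that level, with -0.47 ± 0.21 in MPP2 against HSC (p 0.0317, edgeR adjusted p 0.551), and -0.19 (unadjusted p 0.371) without that HSC replicate. Its 6 HSC replicates held 133 to 306 CPM with a median of 154, and its 6 MPP2 replicates held 106 to 159 CPM with a median of 139.

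Replicate 3 of IκB– HSC held the highest value of all 23 replicates at 5 of the 11 regions, those of Fkbp5, Sgk1 and Dusp1 and both of Per1. Over all regions it was the highest at 14.4%, and at 20.2% of the 7442 tested regions near gene ends. The share of counts near gene ends was also the highest in this library, and its part in these values was not tested. Without it the mean log2 fold change was 0.42 for the region inside Per1 (adjusted p 0.362), and 0.22 for the region inside Tsc22d3.

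**Figure D3:**
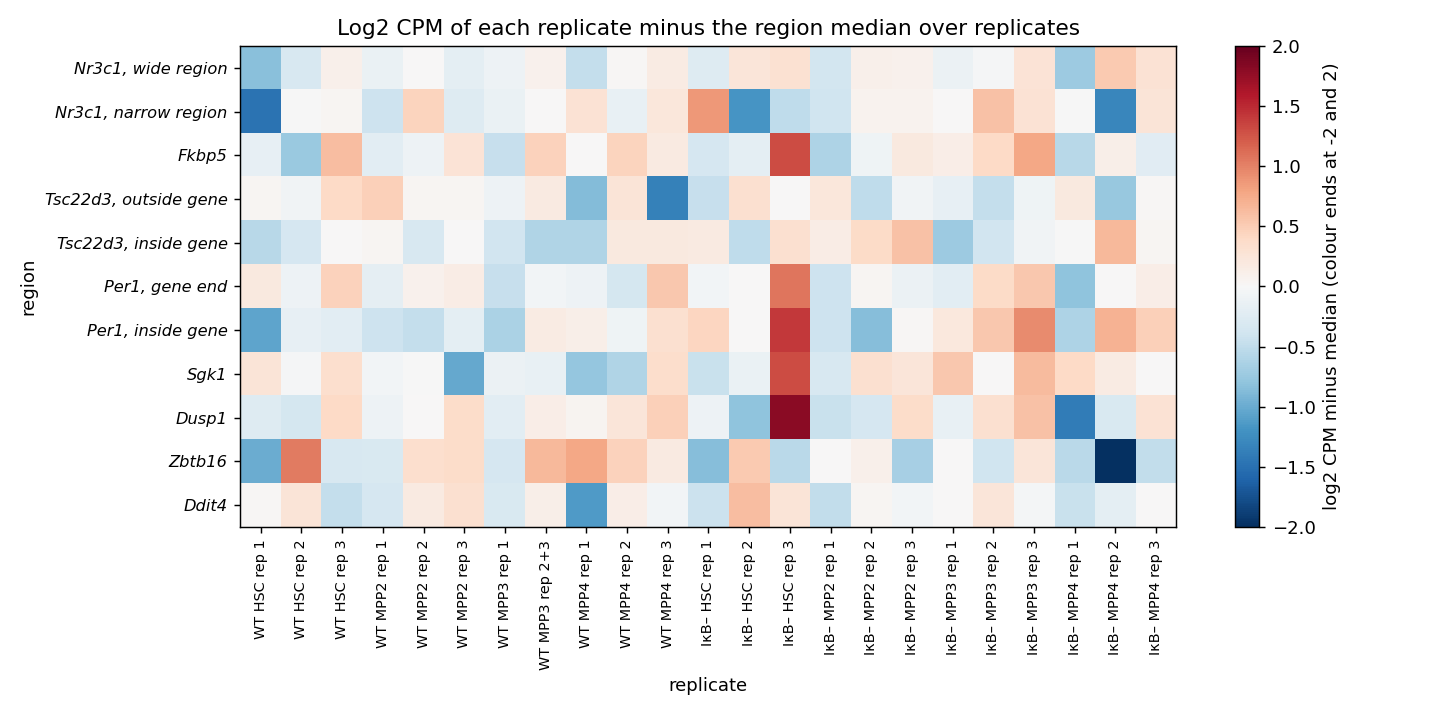
Log2 CPM of each of the 23 replicates (columns) at each of the 11 regions (rows), minus the median of the region over the replicates, with colours ending at -2 and 2. The column of IκB– HSC replicate 3 is dark red at Fkbp5, both Per1 regions, Sgk1 and Dusp1, while Nr3c1, Zbtb16, Ddit4 and Tsc22d3 are not at their highest in it.

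Across the 23 replicates the regions did not move as 1 group. Pearson's r of log2 CPM between pairs of the 11 regions had a median of 0.18 over the 55 pairs and ran from -0.50 to 0.82. The highest values joined regions at gene ends, with 0.82 between Fkbp5 and Dusp1, 0.81 between the end of Per1 and Dusp1, and 0.74 between Fkbp5 and the end of Per1. Without replicate 3 of IκB– HSC these were 0.71, 0.70 and 0.61 over 22 replicates. The lowest was -0.50, between the region inside Tsc22d3 and Zbtb16. The points share libraries, and so share their depth and their share of counts near gene ends, with which Dusp1 had an r of 0.64, Fkbp5 0.59 and the end of Per1 0.58. With the other 7441 regions near gene ends, the median r was 0.13 for Dusp1, 0.12 for Fkbp5 and 0.11 for the end of Per1. Correlations are given as descriptions, with no test.

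The regions of other genes whose values followed the wide Nr3c1 region most closely over the 23 replicates were at the ends of Hdlbp (r 0.81), Tgfbr1 (0.81) and Ing1 (0.80). For Zbtb16 they were a region inside Zfp771 (0.80), one at the end of Runx3 (0.75) and one outside genes near Vav1 (0.75). They are the highest values over all tested regions, and no test was made.

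A further 9 regions lay within 50 kb of an end of Nr3c1, Fkbp5, Tsc22d3, Per1 or Ddit4 but were nearer to another gene and so fell outside the rule. The member farthest from a gene end by the rule, outside the gene body, was the Tsc22d3 region at 18915 bp. The regions left out were 29089 to 49682 bp from the end of one of the 8 genes, and nearest to Arhgap26, Armc12, Prps1, Borcs6, Dnajb12 or Anapc16. Their log2 fold changes ran from -0.59 ± 0.25, for a region near Dnajb12 at chr10:59907954-59908271, to 0.37 ± 0.31, for another near the same gene.

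Other genes of the pathway were taken from lists of response genes and of chaperones, cofactors and hormone-metabolizing enzymes. Among 25 further response genes, 20 had a region and 35 regions were tested. In IκB– recipients edgeR called 4 regions higher, near Klf9, at Mt1, at Mt2 and near Cebpd, against 0.608% of all regions. It called 0 lower, against 1.13% of all regions. DESeq2 called 3 higher and 0 lower, against 147 calls of either sign over all regions. In limma-voom 3 were called higher and 1 lower. The 8 other settings of tool and processing, limma-voom among them, had 147 to 481 calls over all regions. The median log2 fold change of the list was 0.18 against -0.0015 over all regions, and 7 of 35 regions had an unadjusted p under 0.05, against 14.3% of all regions. DESeq2 and limma-voom also had 7 each, against 11.7% and 16.5% of all regions. Replicate 3 of IκB– HSC was the highest of 23 at 10 of the 35 regions, against 14.4% of all regions. Without this replicate the median was 0.043, with the same 4 called and 6 regions at that level, against 14.7% of all regions. The count at that level was 15 without replicate 1 of IκB– HSC, 12 without replicate 3 of WT MPP4 and 11 without replicate 1 of IκB– MPP2. Over all regions the shares in these fits were 17%, 14.6% and 13.3%. These counts are the highest of the 23 fits that left out 1 replicate, and the lowest was 6. The Klf9 and metallothionein regions were already known from earlier results of these data, so the count is not independent evidence. No region was found for Pdk4, Hif3a, Tat, Lcn2 and Snai2.

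Klf9 encodes a zinc finger transcription factor that glucocorticoids induce. A region outside genes, 6024 bp from its end (chr19:23134882-23135202), held a median of 27.5 CPM in WT recipients (14.3 to 47.2, n = 11) and 85.4 CPM in IκB– recipients (47.3 to 125, n = 12). The lowest IκB– value lay just above the highest WT value, so the recipients did not overlap. Its mean log2 fold change was 1.44 ± 0.21 (edgeR adjusted p 0.000362), and by subset it ran from 1.28 in HSC to 1.68 in MPP2, with MPP3 at 1.47 and MPP4 at 1.34. A second region beside it, chr19:23135249-23135664, had 0.82 ± 0.25 and an edgeR adjusted p of 0.0858. A further Klf9 region beside the first was called with the replicate block and 24 libraries kept apart, and without replicate 1 of IκB– MPP3.

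Mt1 and Mt2 encode metallothioneins, small metal-binding proteins induced by glucocorticoids and by metals, and are neighbours in the genome. The Mt1 region (chr8:94178910-94179276) held a median of 33.4 CPM in WT (16.5 to 69.5, n = 11) and 89.0 CPM in IκB– recipients (52.8 to 132, n = 12), with a log2 fold change of 1.20 ± 0.20 (edgeR adjusted p 0.000948). Within MPP3, limma-voom called 3 regions of the list, and the 8 other settings of tool and processing called 19 to 357 of all regions. edgeR called 0.21% of all regions there. The Mt1 region rose in MPP3 also on its own, by 2.15 ± 0.39, and was the only region of the list that edgeR called within a single subset. That MPP3 call was lost without replicate 1 of WT MPP3 (edgeR adjusted p 0.0937) and without replicates 2 and 3 (0.180). Both leave 1 WT MPP3 replicate, which is taken to vary like the other groups. The call stayed in the other 21 fits that left out 1 replicate. The Mt2 region (chr8:94172557-94172774) held a median of 9.43 CPM in WT (6.11 to 27.8) from 1 to 7 counts per replicate and 24.7 CPM in IκB– recipients (11.1 to 49.2), with 1.30 ± 0.35 (edgeR adjusted p 0.0437). The recipients overlapped at both. The Mt2 call was lost in DESeq2 (adjusted p 0.0514) and in limma-voom (0.112), and stayed in 4 of the 23 fits that left out 1 replicate.

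Cebpd encodes a transcription factor of acute inflammatory and glucocorticoid responses. Its region (chr16:15887035-15887235), 51 bp from the gene end, held a median of 27.4 CPM in WT (9.09 to 57.3, n = 11) and 53.8 CPM in IκB– recipients (24.03 to 93.2, n = 12), which overlapped. The log2 fold change was 0.98 ± 0.22 (edgeR adjusted p 0.0111), and by subset it ran from 0.43 in MPP4 to 1.503 in HSC, with MPP2 at 0.87 and MPP3 at 1.0996. Its call was lost without replicates 2 and 3 of WT MPP3 (adjusted p 0.0605) and without replicate 1 of IκB– MPP2 (0.0532). The wider list also held a region near Anxa1, which encodes the anti-inflammatory protein annexin A1, with -0.97 ± 0.28 and an edgeR adjusted p of 0.0660 (chr19:20409643-20409888). It was the region that limma-voom called lower (adjusted p 0.0343), and it also passed with the replicate block and 24 libraries kept apart (0.0353). Its adjusted p was 0.118 in DESeq2 and from 0.0524 to 0.140 in the 23 fits that left out 1 replicate.

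Among 21 genes of chaperones, cofactors and hormone metabolism, 20 had a region and 22 regions were tested. edgeR called 0 of the 22 in the mean recipient effect, in each subset, in the interaction and in the joint subset test, and across these 7 tests it called from 0% to 7.18% of all regions. In the mean recipient effect 4 of 22 had an unadjusted p under 0.05, against 14.3% of all regions. The median log2 fold change was 0.079, and DESeq2 and limma-voom called 0, with 2 and 4 at that level, against 11.7% and 16.5% of all regions. In the other 6 tests edgeR had between 0 and 2 regions at that level, against 3.65% to 18.8% of all regions. Those in the mean recipient effect included regions at Hsp90ab1, which encodes a chaperone that holds the receptor (-0.49 ± 0.22), and inside Arid1a, which encodes a chromatin remodelling subunit (-0.86 ± 0.29 and -0.42 ± 0.20). Not all of the 4 are named here. Those named are lower in IκB– recipients, while the median of the list was positive.

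**Figure D4:**
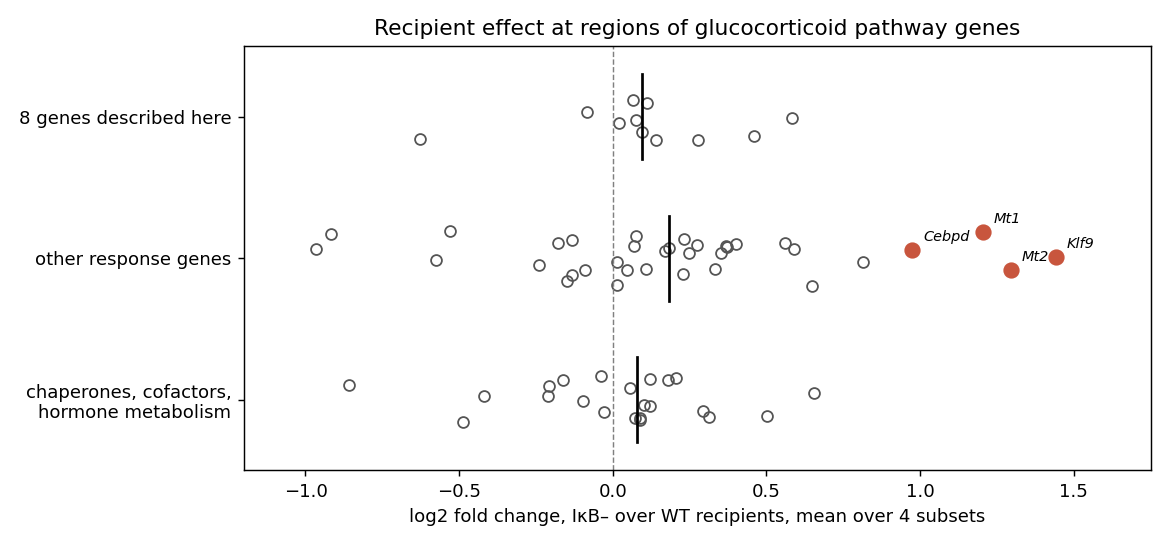
Mean log2 fold change (IκB– over WT recipients, horizontal axis) of each tested region, with 11 regions of the 8 genes, 35 of other response genes and 22 of chaperones, cofactors and hormone metabolism. Vertical bars mark the median of each list and filled red points the 4 regions at Klf9, Mt1, Mt2 and Cebpd with an edgeR adjusted p under 0.05, which lie at 0.98 or above.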

How the data were processed

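Raw counts per region in 24 libraries, as deposited by the authors, were used with the group and replicate of each title. The submitters' processing notes name Bowtie2, SAMtools, Picard, MACS2 2.1.0, deepTools and the build mm10. The counting tool, duplicate filter and Tn5 offset are not given in the sources used here. Gene names, start sites and promoter windows came from RefSeq tables of GRCm38.p6, with no exons.

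All regions were fitted together in edgeR 4.0.16 (R 4.3.3), with TMM, filterByExpr (13325 regions kept) and a robust quasi-likelihood fit of 8 group means over 23 replicates with 15 residual degrees of freedom. P-values were adjusted by Benjamini-Hochberg across all tested regions, and called means an adjusted p under 0.05. CPM carries a prior count of 2 on the log2 scale only. DESeq2 1.42.0 and limma 3.58.1 (voom) were run as alternatives. The code was tested on simulated data.

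Genes, lists and rules were chosen with earlier results of these data known. Values of every replicate are printed for regions at or within 1 kb of a start site, for those with an unadjusted p under 0.05 in the mean recipient effect, the interaction or the joint subset test, and, beyond that rule, for the wide Nr3c1 region and the end of Per1. For likeness the 3 closest regions of other genes are named. Results for some genes are not reported here.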

Additional observations from a re-analysis of the deposited data

How the results depend on the processing

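Calls at the 11 regions stayed at 0 in all 10 comparisons, under the 8 other settings of tool, scaling, filter, library merging and replicate block and in the 23 fits that left out 1 replicate. A window of 10 kb left 10 regions. The Dusp1 log2 fold change was -0.057 in limma-voom, and the cause was not tested. Leaving out 1 replicate, it ran from -0.23 to 0.23 for Dusp1, -0.17 to 0.22 for Fkbp5, -0.0625 to 0.16 for the end of Per1, -0.041 to 0.085 for Ddit4, -0.12 to 0.20 for the narrow Nr3c1 region and -0.16 to 0.12 for the region outside Tsc22d3. The region inside Per1 ran from 0.42 to 0.72, Sgk1 from 0.21 to 0.59 and Zbtb16 from -0.74 to -0.39, the wide Nr3c1 region from 0.094 to 0.23 and the region inside Tsc22d3 from 0.22 to 0.34.

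The wider response list had 2 to 5 calls without 1 replicate, with 2 without replicates 2 and 3 of WT MPP3 and without replicate 1 of IκB– MPP2. These settings were chosen after seeing the data. Over all regions the mean recipient effect had 147 calls in DESeq2, 231 in the fit reported, 287 with all 24 libraries kept apart and 481 with the replicate block added to those 24, and 53 to 442 without 1 replicate.

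Same-numbered libraries had a mean correlation of deviations of 0.14 over 84 pairs, 52 of them above 0.1, and all 24 libraries correlated best with their own number, a hint from the data and not the design. The adjusted p of the region inside Per1 in the mean recipient effect was 0.145 with 24 libraries kept apart and, with the replicate block added, 0.0704, the smallest of the 11 regions in that fit. Zbtb16, Sgk1 and the region inside Per1 held 1 to 63 counts per replicate, and the called Klf9 region 3 to 58. How far depth limits the calls was not tested.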
